A study of Mus musculus with 6 samples.

Results

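The interferon-stimulated and class I antigen-presentation genes described here are 42 genes of the 21999 in the count table of cultured mouse lung microvascular endothelial cells. They were chosen by symbol from what they are known to do, with earlier results of these data known, and each symbol was found once in the table. Of the 42, 40 passed the filter on low counts, as did 13609 genes in all. *Mx1* and *Oas3* did not pass it, and their counts are given below.

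Interferons are secreted alarm proteins of the antiviral response. Type I interferons bind the *Ifnar1* and *Ifnar2* receptor, the kinases *Jak1* and *Tyk2* phosphorylate *Stat2* among others, and *Stat2* joins *Irf9* in a factor that binds the interferon-stimulated response element in the promoters of target genes. Interferon-gamma acts at gamma-activated sites. The targets make cells hostile to viruses, raise the sensors that detect foreign RNA and DNA, and raise the proteins that cut, carry and display peptides on class I molecules at the cell surface, which endothelial cells show to passing T cells.

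Total RNA came from untreated lung microvascular endothelial cells (LMVEC) of *Ptprz1*+/+ mice in 3 libraries and of *Ptprz1*-/- mice, labelled as carrying no intact copy of this receptor phosphatase gene, in 3 libraries, all on the SV129/B6 background. Each library was a separate isolation that pooled 2 to 5 mice aged 3 to 8 weeks, so the spread between libraries is the spread between such pools. The dissociated lung cells were grown to confluence in medium with serum, endothelial growth supplement and heparin, and were then taken with magnetic beads against CD31, the product of *Pecam1*. The genotype of an isolation is known from its label, and cell number, passage and isolation date are not given in the sources used here.

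Between 14496881 and 17709663 reads were counted on genes per library. Values per library are CPM, counts taken relative to a library size that edgeR's TMM method adjusts, or FPKM, the deposited values per gene length and library depth, where levels of different genes are set side by side. They are given in the order of replicates 1, 2 and 3 of *Ptprz1*+/+, then replicates 1, 2 and 3 of the libraries labelled *Ptprz1*-/-. The count of *Ptprz1* itself was 197, 1837 and 508, then 1138, 1320 and 895, so the targeted gene overlapped between the labels and every direction given between genotypes depends on the labels being right. The 12 endothelial markers, *Pecam1* and *Cdh5* among them, summed to 36.8, 28.4 and 202 FPKM, then 27.6, 34.8 and 86.2 FPKM. The 10 fibroblast markers summed to 3510, 4030 and 5130 FPKM, then 2540, 2160 and 5680 FPKM, far above the endothelial sum in every library. Endothelial markers were thus highest in both libraries numbered 3, where the fibroblast sum was highest too, and low in the other 4. The label of an endothelial cell was not matched by its markers in those 4. In the libraries numbered 3, fibroblast markers also exceeded endothelial ones. In RNA of whole cultures, fewer cells of a type and less RNA per cell cannot be told apart.

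Most of the interferon-stimulated genes were high in the same libraries, and these were of both genotypes. Their levels were high in *Ptprz1*+/+ replicate 1 and in the library labelled *Ptprz1*-/- replicate 1, and lowest in *Ptprz1*+/+ replicate 2. The 35 members outside class I presentation summed to 1270, 262 and 575 FPKM, then 1350, 906 and 709 FPKM, so the highest library held 5.16 times the lowest. Of the 33 of them that were tested, 28 were lowest in *Ptprz1*+/+ replicate 2, which was the lowest library for 26.5% of all genes tested. In 27 of the 33, the libraries numbered 1 were the highest pair, against 12.1% of all genes tested. The exceptions to the first count were *Irf1*, *Oas1a*, *Oasl1*, *Dhx58* and *Trim25*. These counts describe the libraries and were chosen after the values were seen.

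**Figure D1:**
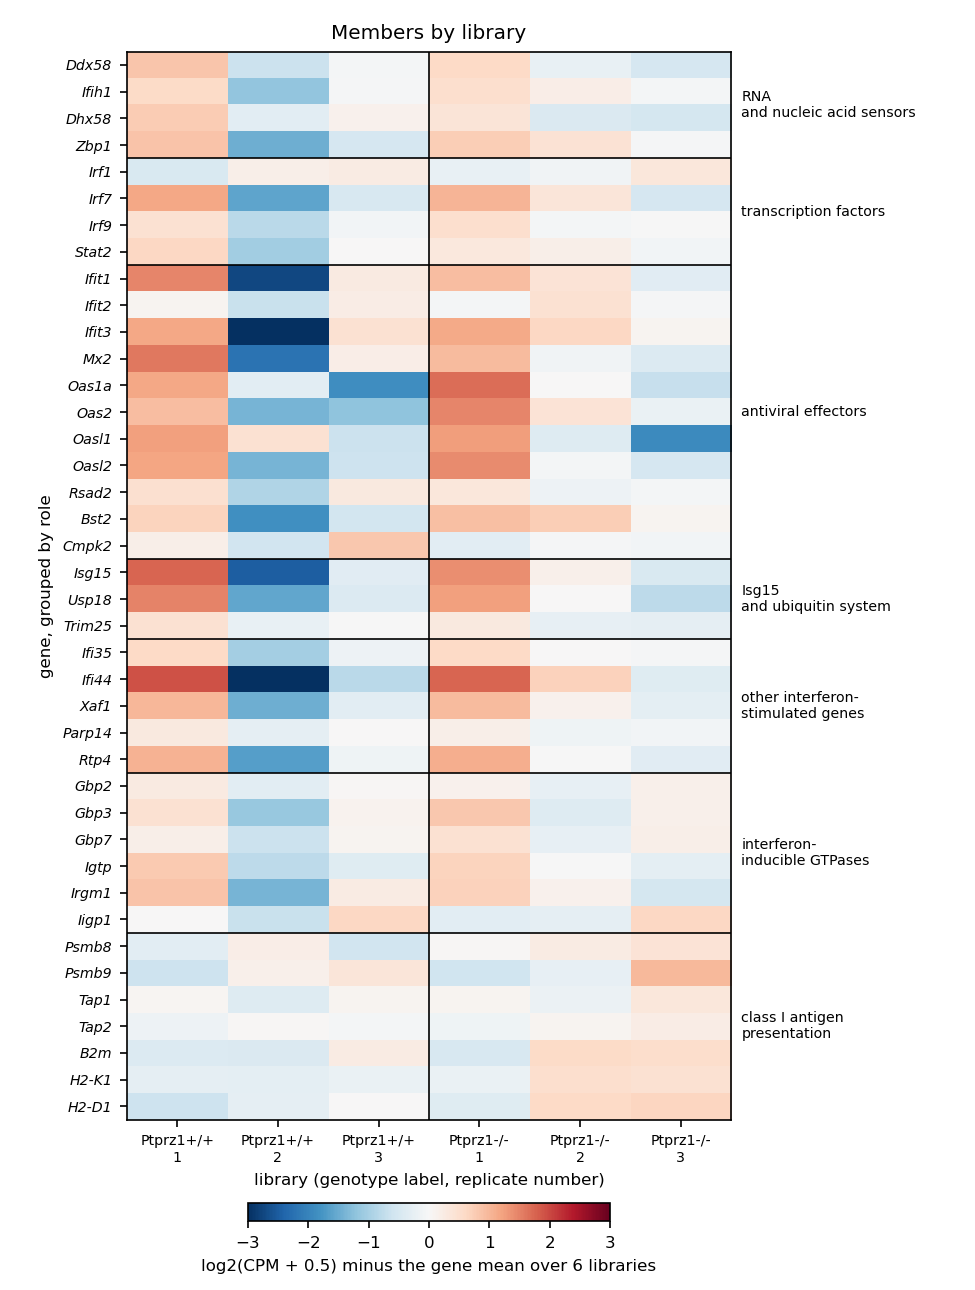
Heat map of the 40 members tested (rows, grouped by role) in the 6 libraries (columns); colour is log2(CPM + 0.5) minus the gene's mean over the 6 libraries. Most interferon-stimulated genes are red in both replicates numbered 1 and blue in *Ptprz1*+/+ replicate 2. *Irf1* is the reverse in these libraries, *Oasl1* is red in *Ptprz1*+/+ replicate 2, and *Cmpk2* and *Iigp1* are blue in the library labelled *Ptprz1*-/- replicate 1. Most class I genes, at the bottom, are reddest in the libraries labelled *Ptprz1*-/- replicates 2 and 3.

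The distance between libraries was wide for these genes. The highest of the 6 libraries was at least 4 times the lowest in 18 of the 40 members tested, as it was in 15.4% of all genes tested. Among genes with a mean of at least 10 CPM, 15 of 32 members reached 4 times, against 7.4% of such genes. The median ratio of the highest to the lowest library was 3.25 over members and 1.72 over all genes tested. Without *Ptprz1*+/+ replicate 2, 9 of the 40 members reached 4 times, against 10.4% of all genes tested, and the median ratio was 2.38 against 1.53.

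The nucleic acid sensors were low to moderate. *Ddx58*, which encodes the viral RNA sensor RIG-I, was at 113, 40.4 and 60.9 CPM, then 96.8, 54.4 and 44.8 CPM. *Ifih1*, the sensor MDA5 of long double-stranded RNA, was at 33.8, 9.62 and 21.9 CPM, then 32.1, 25.9 and 21.6 CPM. *Zbp1*, which detects left-handed Z-form nucleic acids, was at 64.2, 12.4 and 24.7 CPM, then 59.1, 47.7 and 34.5 CPM. In all 3 genes replicate 1 was the highest library of each genotype and the genotypes overlapped. *Dhx58*, the third helicase of the RIG-I family, was lower, at 13.6, 6.16 and 8.58 CPM, then 10.3, 5.63 and 5.28 CPM. Its exons share 141 bases with the antisense gene *Dhx58os*, so its reads are uncertain where strand was not used in counting.

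Of the transcription factors, *Irf7*, which drives the later wave of interferon production, differed most between libraries. It was at 62.8, 9.02 and 19.8 CPM, then 57.1, 36.0 and 19.5 CPM, a 6.96-fold distance within *Ptprz1*+/+. *Stat2*, the partner of *Irf9*, was at 246, 77.0 and 161 CPM, then 199, 179 and 151 CPM. *Irf9*, the DNA-binding part of that complex, was at 82.9, 33.7 and 56.8 CPM, then 84.8, 57.9 and 58.9 CPM. Both were thus lowest in *Ptprz1*+/+ replicate 2, by a smaller factor than *Irf7*. *Irf1*, a factor of the interferon-gamma response, had another order, at 18.4, 28.7 and 29.8 CPM, then 21.7, 23.5 and 32.2 CPM, with both libraries numbered 1 lowest. Exons of *Irf9* share 123 bases with *Rnf31* on the same strand, those of *Irf7* share 45 with *Phrf1* and those of *Irf1* share 135 with *Gm17334*, both on the opposite strand.

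The antiviral effectors held the widest distances, with a median ratio of 10.6 between the highest and lowest library over 11 genes tested. *Ifit3*, which strengthens the binding of foreign RNA by *Ifit1*, was at 134, 4.95 and 82.7 CPM, then 132, 92.9 and 63.9 CPM, a ratio of 27.0. *Ifit1*, which binds RNA that lacks the host's cap marks, was at 137, 7.09 and 59.9 CPM, then 94.0, 65.5 and 39.2 CPM, a ratio of 19.3. *Mx2*, a dynamin-like GTPase, was at 24.6, 1.32 and 9.15 CPM, then 15.7, 7.34 and 5.81 CPM. In each of these 3 genes, *Ptprz1*+/+ replicate 2 lay far below the other 5 libraries, and *Ptprz1*+/+ replicate 1 was at the top. *Ifit2*, beside the other Ifit genes on chromosome 19, was at 24.4 to 53.7 CPM in the 6 libraries, a ratio of 2.20, and was highest in the library labelled *Ptprz1*-/- replicate 2. Transcripts of *Ifit3* match those of *Ifit3b* over 1700 bases at 97.8% identity, and those of *Ifit1* match *Ifit1bl2* over 507 bases at 92.7%, so reads could be shared with them.

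The oligoadenylate synthetases make a short nucleotide messenger of the antiviral response, and the Oasl genes are relatives of them. *Oasl2* was at 104, 17.0 and 29.5 CPM, then 123, 43.4 and 31.8 CPM. *Oas1a* was at 17.9, 6.10 and 1.77 CPM, then 26.0, 7.82 and 4.62 CPM. *Oasl1* was at 8.64, 4.78 and 1.96 CPM, then 8.68, 2.47 and 0.528 CPM. In all 3, the libraries numbered 1 were the highest pair, and in *Oas1a* and *Oasl1* a library numbered 3 was lowest. *Oas2* had 17 to 160 reads and was at 6.58, 0.934 and 1.14 CPM, then 9.92, 4.46 and 2.77 CPM. *Oas3*, which did not pass the filter, had 18, 0 and 3 reads, then 30, 8 and 1, again with its highest counts in the libraries numbered 1. *Oas1a* matches *Oas1g* over 1860 bases at 97.5% identity.

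*Bst2* (tetherin), which holds budding virus particles at the cell surface, was the highest interferon-stimulated member by FPKM, with a mean of 374 over the 6 libraries. It was at 381, 67.0 and 165 CPM, then 451, 401 and 257 CPM. The library labelled *Ptprz1*-/- replicate 1 was the highest, and *Ptprz1*+/+ replicate 1 lay inside the range of the libraries labelled *Ptprz1*-/-. *Rsad2* (viperin), which makes a chain-terminating nucleotide, had 21 to 63 reads, and its neighbour *Cmpk2*, a mitochondrial nucleotide kinase, had 29 to 79. *Mx1*, which did not pass the filter, had 4, 3 and 10 reads, then 3, 5 and 3, and also matches *Mx2* over 875 bases at 95.7% identity.

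The ubiquitin-like *Isg15* and, of its system, *Usp18* followed the same order. *Isg15*, which is joined to other proteins during the antiviral response, was at 114, 5.61 and 26.2 CPM, then 88.8, 37.3 and 24.1 CPM, a ratio of 20.3. *Usp18*, which removes *Isg15* and also restrains the receptor, was at 63.6, 7.26 and 16.8 CPM, then 53.5, 22.6 and 12.8 CPM. Both had the libraries numbered 1 at the top of each genotype and overlapped between genotypes. *Trim25*, the ligase that activates RIG-I, differed less, between 61.6 and 102 CPM. It was also highest in the libraries numbered 1, but lowest in the library labelled *Ptprz1*-/- replicate 3 and not in *Ptprz1*+/+ replicate 2. The medians of the 3 genes, on the log2 scale against each gene's mean, were 1.49, -1.56 and -0.35 in *Ptprz1*+/+ and 1.24, 0.02 and -0.47 in the libraries labelled *Ptprz1*-/-.

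Among the other interferon-stimulated genes, *Ifi44* had the widest distance of all 40 members, 38.6-fold. It was at 123, 3.19 and 18.4 CPM, then 110, 52.8 and 25.4 CPM, with 58 reads in *Ptprz1*+/+ replicate 2 and 2037 in *Ptprz1*+/+ replicate 1. *Xaf1*, a pro-apoptotic factor, was at 147, 26.7 and 59.2 CPM, then 143, 81.1 and 60.1 CPM. *Rtp4*, a chaperone of receptors on their way to the cell surface, was at 37.9, 5.39 and 16.3 CPM, then 38.8, 17.9 and 14.1 CPM. The 3 genes share the order in which both libraries numbered 1 led. *Ifi35* was between 8.47 and 26.9 CPM, and its exons share 290 bases with *Gm11626* on the opposite strand. *Parp14*, a mono-ADP-ribosyltransferase, was nearly flat, between 29.0 and 42.8 CPM.

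The interferon-inducible GTPases act on membranes around intracellular microbes, and most are driven by interferon-gamma. *Irgm1*, a regulator of the family, was at 115, 23.9 and 76.0 CPM, then 104, 70.1 and 43.7 CPM. *Gbp3*, a guanylate-binding protein, was at 23.9, 7.59 and 18.9 CPM, then 31.0, 13.2 and 19.5 CPM. *Igtp* was between 5.06 and 16.2 CPM, and matches *Irgm2* over 421 bases at 94.8% identity. Each of these 3 was highest in a library numbered 1 and lowest in *Ptprz1*+/+ replicate 2. *Gbp2* differed 1.51-fold, between 39.4 and 59.7 CPM, and *Gbp7* differed 2.20-fold, between 14.2 and 31.3 CPM. *Iigp1* was the member of this group highest in both libraries numbered 3 (24.9 and 24.7 CPM, against 9.84 to 16.2 CPM in the other 4).

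Class I presentation did not follow that order. The 7 genes summed to 699, 734 and 1030 FPKM, then 723, 1320 and 1420 FPKM. This sum was carried by *B2m*, at 551, 561 and 845 FPKM, then 548, 1050 and 1110 FPKM. It was highest in the libraries labelled *Ptprz1*-/- replicates 2 and 3. In the library labelled *Ptprz1*-/- replicate 1 it was at the level of *Ptprz1*+/+ replicates 1 and 2. The libraries labelled *Ptprz1*-/- replicates 2 and 3 were the highest pair in 5 of the 7 genes (*Psmb8*, *Tap2*, *B2m*, *H2-K1* and *H2-D1*), and in 5.06% of all genes tested. With upper-quartile normalization they were so in 3 of the 7. This pair was chosen after the values were seen, so these counts only describe the libraries. *B2m*, the light chain of every class I molecule and the highest member by FPKM, was at 483, 469 and 752 CPM, then 456, 954 and 915 CPM. *H2-D1*, a classical heavy chain, was at 138, 178 and 216 CPM, then 167, 324 and 335 CPM. *H2-K1*, the other classical heavy chain, was at 134, 130 and 139 CPM, then 139, 228 and 219 CPM. The 3 chains thus had their highest values in the same libraries, and for *B2m* and *H2-D1* the genotypes overlapped through replicate 1 of *Ptprz1*-/-.

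The peptide machinery was low by comparison. *Tap1* and *Tap2*, the paired subunits of the transporter that carries peptides into the endoplasmic reticulum, were between 17.4 and 29.0 CPM and between 17.0 and 22.3 CPM. *Psmb8*, a catalytic subunit of the immunoproteasome, was at 4.95, 7.20 and 4.04 CPM, then 6.39, 7.55 and 8.45 CPM. *Psmb9*, another such subunit, had 12 to 49 reads. *Psmb9* and *Tap1* start close together on opposite strands and share 212 exon bases, and *Tap2* shares 533 with *Gm15821* on the opposite strand, so these counts are uncertain where strand was not used. *H2-K1* and *H2-D1* match each other over 1033 bases at 91.5% identity and both match further H2 genes of the table at 90% or more, so reads could be split among them.

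**Figure D2:**
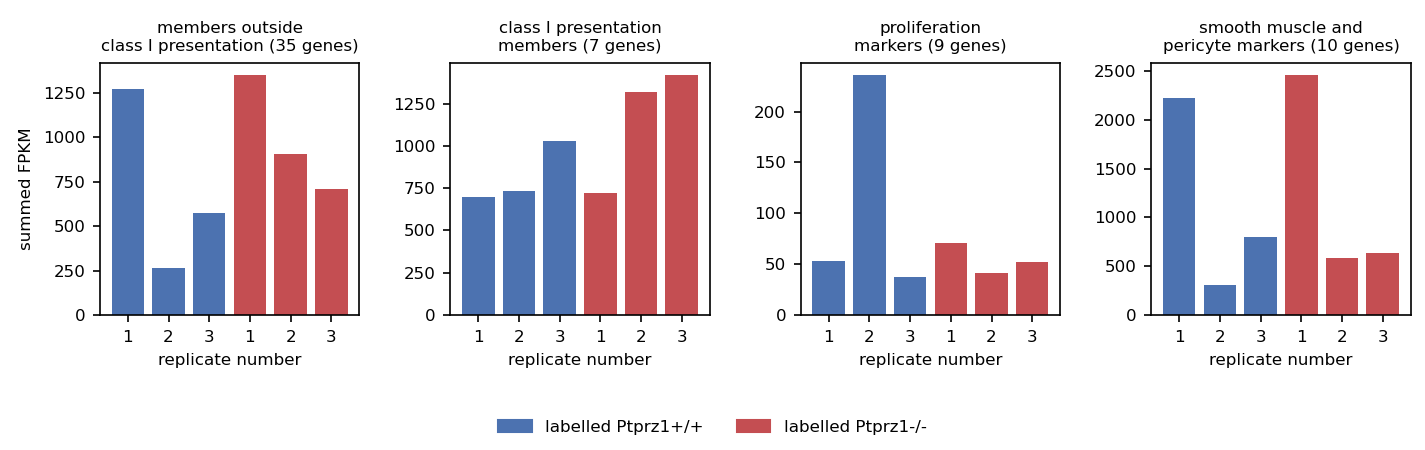
Bars of summed FPKM (vertical axes from 0) in each library (horizontal axis, replicate number; blue, *Ptprz1*+/+; red, labelled *Ptprz1*-/-) for members outside class I, class I members, proliferation markers and smooth muscle and pericyte markers. The first set is lowest at 262 and the proliferation set highest at 236 in *Ptprz1*+/+ replicate 2, and the smooth muscle set, a sum carried by *Acta2* and *Tagln*, is highest at 2220 and 2460 in the libraries numbered 1, while 5 of its 10 genes do not have these as their highest pair.

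Other contents of the cultures moved with the libraries too. The 9 proliferation markers summed to 53.5, 236 and 37.2 FPKM, then 71.0, 41.7 and 52.5 FPKM, and all 9 were highest in *Ptprz1*+/+ replicate 2, the library with the lowest interferon-stimulated genes. The 10 smooth muscle and pericyte markers summed to 2220, 307 and 795 FPKM, then 2460, 581 and 637 FPKM, a sum carried by the contractile genes *Acta2* and *Tagln*. The libraries numbered 1 were the highest pair in 5 of the 10 (*Acta2*, *Tagln*, *Myh11*, *Cnn1* and *Des*) and not in the other 5, *Pdgfrb*, *Rgs5*, *Cspg4*, *Kcnj8* and *Notch3*, and *Ptprz1*+/+ replicate 2 was the lowest library in 3 of the 10. The 7 mesothelial markers were highest in the library labelled *Ptprz1*-/- replicate 1, at 586 FPKM against 19.3 to 104 FPKM in the other 5. The part of any of these in the levels of the members was not tested. Leukocyte markers were low, with 12 of 14 in the table and a sum of 7.61 to 39.6 FPKM. Of 6 markers of plasmacytoid dendritic cells, a main source of type I interferon, *Siglech* and *Ly6d* are not among the genes of the table, *Ccr9* had at most 0.198 CPM and *Klk1* at most 0.121 CPM, and *Bst2*, which is also a member, held most of the sum of 111 to 628 FPKM. The sixth, *Tcf4*, which other cell types also express, was at 19.0 to 28.2 FPKM. The 8 epithelial markers summed to at most 0.808 FPKM.

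The promoters of the members were examined for the response element through which interferon acts. RefSeq windows of 300 bases (250 before to 50 after each annotated start, GRCm38.p6) were found for 32 of the 42 members. The core searched, on both strands, was GAAA, any 2 bases, GAAA. It was found in 16 of the 32 members (50%), and in 1131 of all 32851 windows (3.44%). Members were counted where any of their windows held the motif, and 5 of the 32 had 2 windows, while the shares over all are per window. Outside class I it was found in 15 of 26 members and within class I in 1 of 6, *B2m*. The windows of *H2-K1* and *H2-D1* held TTTC, 2 bases, TTC, which is 1 base shorter than the core and was not counted. The share of all windows with that stretch was not taken, so the lower count in class I depends on the exact core searched. The windows of *Ifit1*, *Ifit3*, *Bst2*, *Gbp3*, *Oas1a*, *Irgm1* and *Isg15* held more than 1 core. The gamma-activated site, TTCNNNGAA, was found in 8 of the 32 members (25%) and in 8.3% of all windows, and overlapped a core in *Bst2*. No window was found for *Mx1*, *Mx2*, *Oas2*, *Usp18*, *Dhx58*, *Zbp1*, *Iigp1*, *Tap2*, *Parp14* and *Rtp4*.

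The 250 bases before the RefSeq start are shown for 5 members with the core and for *H2-K1*, which had none in its windows, each 5′ to 3′ on the strand of the gene with the cores in capitals. *Isg15* (chr4:156200819-156201068, minus strand) holds 3 overlapping cores from 78 bases before the start, *Ifit3* (chr19:34583279-34583528, plus strand) a pair apart, *Irgm1* (chr11:48871421-48871670, minus strand) and *Bst2* (chr8:71537473-71537722, minus strand) an overlapping pair each, and *B2m* (chr2:122147437-122147686, plus strand) 1. *H2-K1* lies at chr17:34000334-34000583, minus strand. It holds TTTC, 2 bases, TTC, 1 base shorter than the core and left in lower case. A core that reads TTTC, 2 bases, TTTC is on the opposite strand.
Isg15: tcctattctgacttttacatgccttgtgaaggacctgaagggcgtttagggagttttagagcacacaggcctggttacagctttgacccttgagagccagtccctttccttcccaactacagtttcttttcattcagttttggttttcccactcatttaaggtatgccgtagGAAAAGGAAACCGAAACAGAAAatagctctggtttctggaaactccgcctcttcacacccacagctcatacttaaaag
Ifit3: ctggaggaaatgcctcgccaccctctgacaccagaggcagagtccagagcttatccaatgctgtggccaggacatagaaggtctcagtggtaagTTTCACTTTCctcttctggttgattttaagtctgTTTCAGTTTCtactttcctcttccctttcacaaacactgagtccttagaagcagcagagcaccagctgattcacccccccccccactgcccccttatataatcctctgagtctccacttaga
Irgm1: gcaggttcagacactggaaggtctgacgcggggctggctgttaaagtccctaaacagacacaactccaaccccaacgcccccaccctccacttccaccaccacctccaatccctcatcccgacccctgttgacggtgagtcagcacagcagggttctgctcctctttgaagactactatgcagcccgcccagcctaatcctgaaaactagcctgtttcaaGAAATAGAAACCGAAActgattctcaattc
Bst2: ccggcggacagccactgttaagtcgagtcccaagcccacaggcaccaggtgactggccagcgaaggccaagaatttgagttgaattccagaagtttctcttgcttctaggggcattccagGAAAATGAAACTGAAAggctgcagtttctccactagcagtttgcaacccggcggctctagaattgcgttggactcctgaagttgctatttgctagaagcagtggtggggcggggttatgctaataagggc
B2m: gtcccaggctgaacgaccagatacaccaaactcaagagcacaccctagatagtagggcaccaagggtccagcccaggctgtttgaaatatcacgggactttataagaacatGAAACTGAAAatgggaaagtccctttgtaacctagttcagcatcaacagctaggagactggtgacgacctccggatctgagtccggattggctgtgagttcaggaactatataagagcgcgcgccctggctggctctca
H2-K1: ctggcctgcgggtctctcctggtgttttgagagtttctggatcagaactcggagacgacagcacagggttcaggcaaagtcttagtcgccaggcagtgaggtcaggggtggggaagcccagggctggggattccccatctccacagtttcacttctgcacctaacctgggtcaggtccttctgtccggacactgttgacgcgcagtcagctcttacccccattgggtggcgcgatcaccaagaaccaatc

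These letters are a description of the windows and do not show that a factor was bound. In *Isg15*, *Ifit3*, *Irgm1* and *Bst2* the level in *Ptprz1*+/+ replicate 2 was the lowest of the 6 libraries, and so it was in *Irf7*, *Xaf1* and *Oasl2*, whose windows held no core. In *B2m* the lowest library was the one labelled *Ptprz1*-/- replicate 1.

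**Figure D3:**
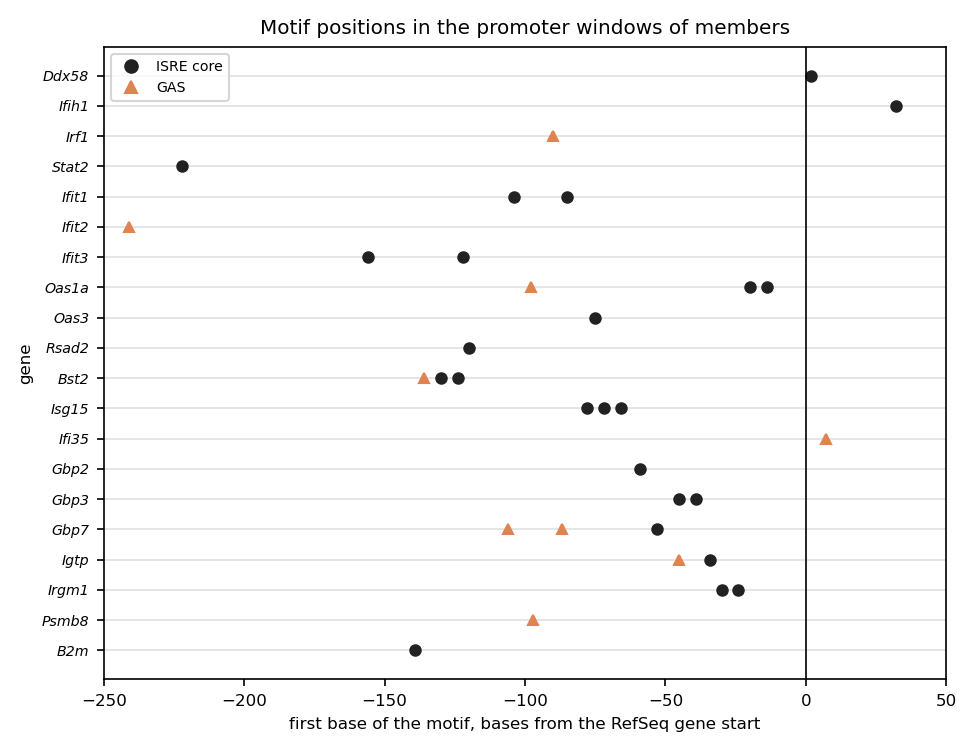
Position of the first base of each motif match (horizontal axis, bases from the RefSeq start) in the windows of the 20 members that held 1; circles are the core of the interferon-stimulated response element and triangles the gamma-activated site. Most circles lie before the start, between -222 (*Stat2*) and -14 (*Oas1a*), and those of *Ddx58* and *Ifih1* lie after it.

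Between the genotypes, no member passed the threshold. *Ptprz1*-/- was compared with *Ptprz1*+/+ in edgeR's quasi-likelihood test over 13609 genes with Benjamini-Hochberg adjustment. At an adjusted p-value under 0.05 there were 0 of 40 members and 0 genes in all (0%), and DESeq2 and limma voom also called 0 members, while DESeq2 called 0.22% of all genes. At an unadjusted p-value under 0.05 there was 1 member, *H2-K1*, against 2.69% of all genes tested, and DESeq2 and limma voom each gave 1 member, against 3.64% and 2.51% of all genes. All 3 libraries labelled *Ptprz1*-/- lay above all 3 of *Ptprz1*+/+ in 1 member, again *H2-K1*, against 3.55% of all genes tested, and below them in 0 members, against 3.73%. The smallest p that an exact permutation of 3 against 3 libraries can give is 0.1.

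*H2-K1* had a mean of 134 ± 4.79 CPM (SD, n = 3) in *Ptprz1*+/+ and 195 ± 48.7 CPM (SD, n = 3) in the libraries labelled *Ptprz1*-/-. Its log2 fold change was 0.54 (SE 0.21, unadjusted p = 0.0363, adjusted p = 1.00 in edgeR's quasi-likelihood test). The gap between the genotypes was 0.132 CPM, between *Ptprz1*+/+ replicate 3 and the library labelled *Ptprz1*-/- replicate 1, and with DESeq2's size factors the genotypes overlapped. *H2-D1* was higher by 0.63 on the log2 scale (SE 0.31, unadjusted p = 0.0833 in edgeR's quasi-likelihood test) and *B2m* by 0.45 (SE 0.35, unadjusted p = 0.239). *Psmb8* was higher by 0.47 (SE 0.29, unadjusted p = 0.151 in edgeR's quasi-likelihood test). All 7 class I genes had a log2 fold change above 0, between 0.13 and 0.63, with a median of 0.45, and 6 of the 7 overlapped between genotypes.

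Of the interferon-stimulated members, those with the smallest unadjusted p-values were *Bst2*, *Oas2*, *Dhx58*, *Cmpk2*, *Gbp7* and *Zbp1*, and none was under 0.199 in edgeR. *Bst2* was higher by 0.86 on the log2 scale in the libraries labelled *Ptprz1*-/- (SE 0.60), and by 1.68 without *Ptprz1*+/+ replicate 1 and 0.44 without *Ptprz1*+/+ replicate 2. *Oas2* was higher by 0.99 (SE 0.87), and by 2.46 without *Ptprz1*+/+ replicate 1 and 0.33 without the library labelled *Ptprz1*-/- replicate 1. *Zbp1* had a log2 fold change of 0.48 (SE 0.57), and of 1.35 without *Ptprz1*+/+ replicate 1 and 0.09 without *Ptprz1*+/+ replicate 2, and *Gbp7* one of 0.26 (SE 0.28). *Dhx58* had one of -0.42 (SE 0.40) and *Cmpk2* one of -0.46 (SE 0.45). With 3 libraries per genotype, edgeR's test did not tell these 6 values from the spread between the isolations.

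The leading genes of the other roles were as close between the genotypes. The log2 fold change was 0.05 for *Isg15* (SE 1.01), 0.13 for *Stat2* (SE 0.40), 0.29 for *Xaf1* (SE 0.63), -0.13 for *Ddx58* (SE 0.44) and 0.01 for *Gbp2* (SE 0.20). For *Isg15*, the mean was 48.5 ± 57.4 CPM in *Ptprz1*+/+ and 50.1 ± 34.2 CPM in the libraries labelled *Ptprz1*-/- (SD, n = 3 each). The SD was thus larger than the mean in *Ptprz1*+/+ and smaller than it in the libraries labelled *Ptprz1*-/-. Without *Ptprz1*+/+ replicate 1 the log2 fold change of *Isg15* was 1.66, and without the library labelled *Ptprz1*-/- replicate 1 it was -0.65, so its direction rests on single libraries.

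Over the 40 members tested, 30 had a log2 fold change above 0, with a median of 0.22 against -0.0047 over all genes tested. This direction also rests on single libraries. Without *Ptprz1*+/+ replicate 2 the median was -0.12, with 14 of 41 members above 0, and without the library labelled *Ptprz1*-/- replicate 1 it was -0.04, with 19 of 40 above 0. Without *Ptprz1*+/+ replicate 1 it was 0.56, with 35 of 40 above 0.

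**Figure D4:**
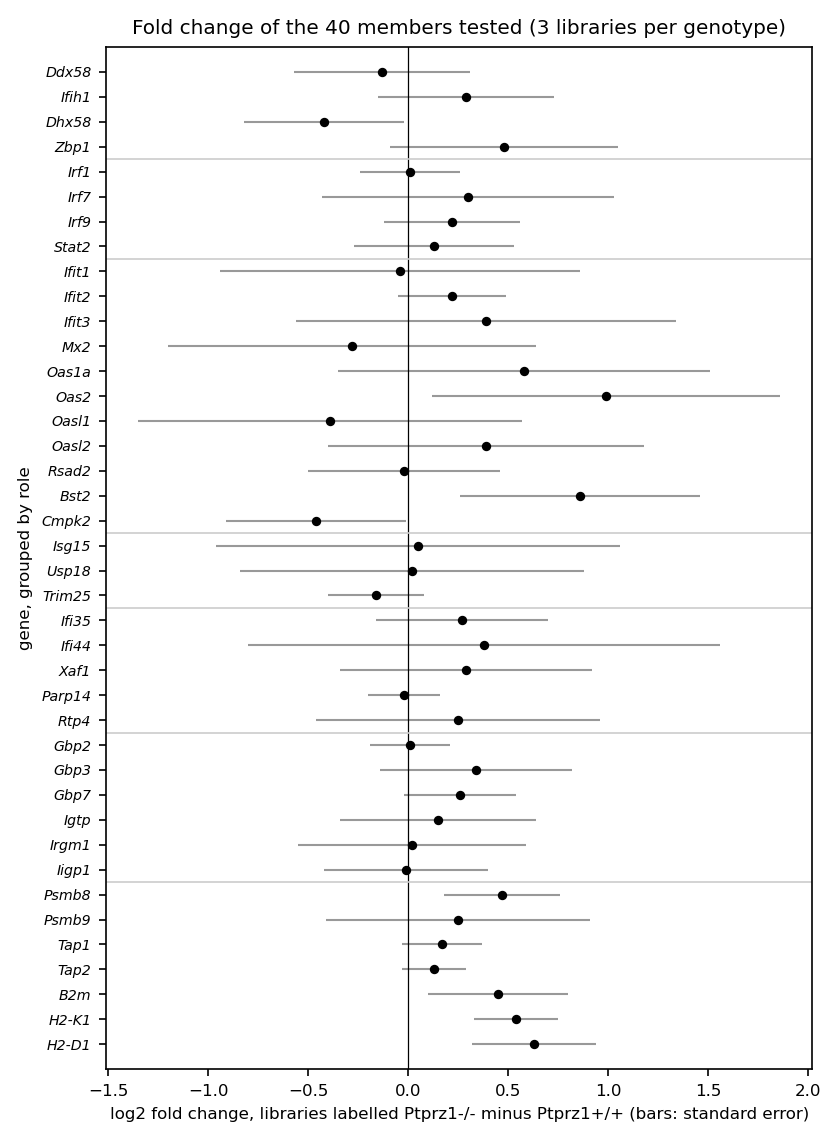
Log2 fold change of the 40 members tested (horizontal axis, libraries labelled *Ptprz1*-/- minus *Ptprz1*+/+; points, edgeR estimate; bars, 1 standard error), grouped by role from sensors at the top to class I presentation at the bottom. The 7 class I genes all lie above 0, between 0.13 and 0.63, and the bars of *Isg15* and *Ifi44* span more than 1 on either side.

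The other genes of the pathway were taken from lists of 130 genes, of which 115 are in the table and 100 passed the filter. In edgeR 0 of the 100 passed the adjusted threshold, 4 had an unadjusted p-value under 0.05, all higher in the libraries labelled *Ptprz1*-/-, against 2.69% of all genes tested in either direction, and in DESeq2 1 passed the adjusted threshold, *Ifi27l2a*. The genotypes did not overlap in 6 of the 100, all higher, and in 0 that were lower, against 3.55% and 3.73% of all genes tested. No test of the lists as a set was made. Of the 100, 54 had a log2 fold change above 0 and the median was 0.02. Of 11 interferon genes on the lists, *Ifne* had 3 reads in *Ptprz1*+/+ replicate 3, *Ifna5* had 1 read in the library labelled *Ptprz1*-/- replicate 3, and the other 9, *Ifnb1* and *Ifng* among them, are not among the genes of the table. The 2 interferon genes in the table thus had at most 3 reads in a library.

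The receptors, kinases and STAT factors were expressed throughout, and 0 of 11 had an unadjusted p-value under 0.05. *Jak1*, the kinase of both receptor types and the highest of them by FPKM, was at 401, 364 and 594 CPM, then 265, 558 and 487 CPM. *Ifnar1*, a chain of the type I receptor, was at 182, 273 and 214 CPM, then 147, 167 and 228 CPM, highest in the library where the targets were lowest. *Ifnar1* was chosen after its values were seen. The libraries numbered 1 were the highest pair in 1 of the 11 genes, near the 12.1% of all genes tested.

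Among the negative regulators, 0 of 8 had an unadjusted p-value under 0.05 in edgeR, against 2.69% of all genes tested. *Socs3*, a feedback inhibitor of the Jak kinases, was the highest, at 174, 215 and 231 CPM, then 175, 317 and 346 CPM, with its highest values in the libraries labelled *Ptprz1*-/- replicates 2 and 3, as in *B2m*. Of the other interferon regulatory factors and *Nlrc5*, the activator of class I genes, 0 of 5 tested did, and *Irf3*, the factor that starts interferon production, was at 20.6 to 28.2 CPM in the 6 libraries. Of the sensing adaptors and kinases, 0 of 13 tested did. Each of these lists is too short for such a count to differ clearly from the share over all genes. *Tmem173* (STING), the adaptor for cytosolic DNA, was at 42.7 to 53.3 CPM, a narrow range beside those of the effectors.

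The list of further interferon-stimulated genes held 42 tested genes that are not members. Of these, 29 were lowest in *Ptprz1*+/+ replicate 2 and 22 had the libraries numbered 1 as their highest pair, against the shares of 26.5% and 12.1% given above. The sum over the list's 47 genes in the table did not follow that order. It was 1990, 2450 and 1980 FPKM, then 1940, 2260 and 2210 FPKM, highest in *Ptprz1*+/+ replicate 2. *Ifitm2*, named after its values were seen, was at 288, 775 and 457 CPM, then 260, 467 and 449 CPM. The highest by FPKM, *Ifitm3*, which blocks viral fusion in endosomes, was at 643, 542 and 570 CPM, then 574, 752 and 603 CPM, a narrow range. *Ifi27l2a*, which encodes a small interferon-induced protein, was at 2.54, 2.14 and 2.27 CPM, then 13.5, 6.66 and 7.07 CPM. Its genotypes did not overlap, and its log2 fold change was 1.97 (SE 0.35, unadjusted p = 0.00107 and adjusted p = 1.00 in edgeR, adjusted p = 0.00123 in DESeq2). *Gbp6* was at 23.1, 18.4 and 24.5 CPM, then 30.6, 26.0 and 50.0 CPM, also without overlap, with a log2 fold change of 0.69 (SE 0.27, unadjusted p = 0.0407 in edgeR). Thus 2 of the 42 did not overlap and were higher, and 0 were lower, near the 3.55% and 3.73% of all genes tested. Over the 42 the median log2 fold change was 0.11, with 15 below 0.

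Of the other genes of class I presentation, 1 of 16 tested had an unadjusted p-value under 0.05 in edgeR, against 2.69% of all genes tested. *Tapbp* (tapasin), which holds empty class I chains at the Tap transporter, was at 103, 83.3 and 106 CPM, then 123, 126 and 137 CPM. The genotypes did not overlap, and the log2 fold change was 0.41 (SE 0.14, unadjusted p = 0.0228, adjusted p = 1.00 in edgeR). *Erap1*, the peptidase that trims peptides for class I, and the class I gene *H2-Q4* also did not overlap, at log2 fold changes of 0.42 (SE 0.20) and 0.62 (SE 0.27), and both were named after their values were seen. Thus 3 of the 16 did not overlap and were higher, and 0 were lower, against 3.55% and 3.73% of all genes tested. Over the list the median log2 fold change was 0.03, with 6 of 16 below 0 and the lowest at -0.77 for *H2-T10*. *Calr* (calreticulin), a folding helper and the highest of the list, was at 5000, 1790 and 2520 CPM, then 3210, 1710 and 1550 CPM, so it was highest in the libraries numbered 1 and did not share the order of *H2-K1* or *B2m*.

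Class II presentation was nearly silent. *Ciita*, its master activator, *H2-Aa* and *H2-Eb1* did not pass the filter, and the 8 genes in the table summed to 5.51 to 14.5 FPKM. *H2-DMb1*, part of the peptide exchanger of class II and the highest of these genes, was at 5.50, 3.90 and 2.15 CPM, then 14.7, 10.9 and 6.54 CPM. The genotypes did not overlap, and the log2 fold change was 1.48 (SE 0.45, unadjusted p = 0.0146, adjusted p = 1.00 in edgeR). *H2-DMb1* was the 1 of 5 tested class II genes without overlap, against 3.55% of all genes tested higher and 3.73% lower. Of the 5, 3 had a log2 fold change below 0, with a median of -0.11 and the lowest at -1.13.

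**Figure D5:**
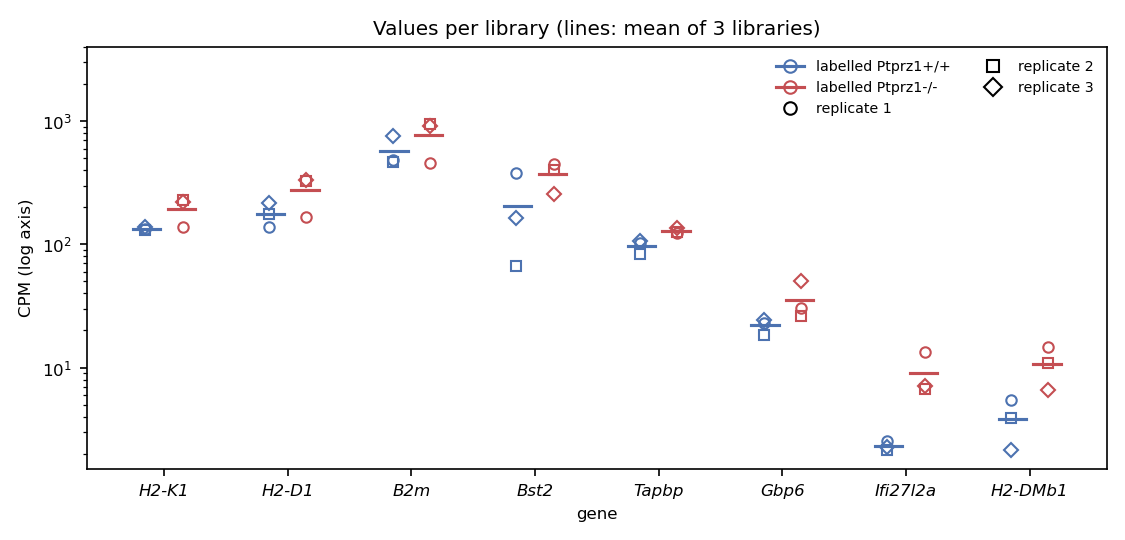
CPM (log axis) of 8 genes in each library (blue, *Ptprz1*+/+; red, labelled *Ptprz1*-/-; marker shape, replicate number; line, mean of 3 libraries). The red markers lie above the blue ones in *H2-K1*, by 0.132 CPM, and in *Tapbp*, *Gbp6*, *Ifi27l2a* and *H2-DMb1*, and the colours overlap in *H2-D1*, *B2m* and *Bst2*.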

How the data were processed

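The 42 members, their roles and the other lists were chosen with earlier results of these data known. The authors deposited raw read counts per gene for the 6 libraries, and FPKM values, which equal those counts divided by gene length and by the library's total count. The mean signals, log2 fold changes and p-values of the authors' own comparison, and their 3 lists of called genes, were not used here. The submitters' processing notes name STAR, HTSeq, TopHat, DESeq2 and edgeR, and GRCm38 and mm10, without giving versions or the role of each. Whether counting used strand is not given in the sources used here, which bears on genes that overlap on opposite strands.

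The model held genotype alone and was fitted across all genes that passed filterByExpr, by the quasi-likelihood functions of edgeR 4.0.16 (R 4.3.3) after TMM scaling. Adjustment was by Benjamini-Hochberg over the same genes, at 0.05. The standard error is the absolute log2 fold change over the square root of the F statistic. P-values weigh the difference between the genotype labels against the spread between these isolations. Depth was 14496881 to 17709663 counts per library, and *Psmb9*, the tested member with the lowest mean FPKM, had 12 to 49 reads. Counts differed between all pairs of libraries. Every member is named. Fold changes are given for the 10 members with the smallest unadjusted p, those whose genotypes do not overlap, and the highest of each role by FPKM, and pathway genes are named by the same kind of rule (no overlap with an unadjusted p under 0.05, or the highest of their list). Alternatives were DESeq2 1.42.0, upper-quartile normalization, no filter, at least 10 counts in every sample, limma 3.58.1 voom, the replicate number as a block, and each library left out, and a shorter motif and CPM in place of FPKM for the descriptions. Each fit was first checked on simulated data with known answers, 200 genes being changed. Transcripts of GENCODE M21 were aligned with minimap2 2.31, keeping matches of at least 100 bases at 90% identity, and exon overlaps were read from the same release; all 42 gene identifiers are in it.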

Additional observations from a re-analysis of the deposited data

How the results depend on the processing

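At an adjusted p-value under 0.05 there were 0 members under all 12 alternatives. The count of members at an unadjusted p-value under 0.05 ranged from 0 (without *Ptprz1*+/+ replicate 3, and without either of the libraries labelled *Ptprz1*-/- replicates 2 and 3) to 4 (without *Ptprz1*+/+ replicate 1, against 4.84% of all genes in that fit). That of pathway genes ranged from 3 to 10, with 10 also in the fit without *Ptprz1*+/+ replicate 1, against the same 4.84%. The genotypes did not overlap in 0 members with DESeq2's size factors (7.19% of all genes tested), and in 1 to 10 members with 1 library left out (13.7% to 21.9%), 10 without *Ptprz1*+/+ replicate 1 (21.9%) and 7 without the library labelled *Ptprz1*-/- replicate 1 (15.7%). DESeq2 called 1 pathway gene at an adjusted p-value under 0.05. With each library left out, the log2 fold change ranged from -0.79 to 0.01 for *Cmpk2*, -0.52 to 0.37 for *Ddx58*, -0.21 to 0.57 for *Stat2*, -0.65 to 1.66 for *Isg15*, -0.14 to 1.15 for *Xaf1* and -0.14 to 0.16 for *Gbp2*, so the sign of these 6 depended on the libraries. The other 9 members with a fold change given, and *Ifi27l2a*, *Gbp6*, *Tapbp*, *H2-DMb1*, *Erap1* and *H2-Q4*, kept their sign under all alternatives, which for *Erap1* and *H2-Q4* were run after their values were seen. Of the alternatives added after seeing the data, leaving out a library gave 9 to 18 members with a 4-fold distance between libraries, and upper-quartile normalization gave 3 class I members highest in the libraries labelled *Ptprz1*-/- replicates 2 and 3. The causes were not tested.

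With the replicate block, 4 members and 8 pathway genes had an unadjusted p-value under 0.05, against 5.07% of all genes tested in that fit, and 0 passed after adjustment. Libraries of the same number deviated from their genotype's mean with correlations of 0.446, -0.0607 and 0.523 for numbers 1, 2 and 3, so the number was not taken to pair them. As a hint from the data, both libraries numbered 1 and both numbered 3 correlated best with each other, and those numbered 2 did not. The shorter form of the motif, GAAA, 2 bases, GAA on either strand, was found in 18 members. It does not cover the TTTC, 2 bases, TTC of *H2-K1* and *H2-D1*. At this depth *Mx1*, *Oas3* and the 2 interferon genes in the table rest on too few reads for a comparison.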
